A study of Mus musculus with 8 samples.

Results

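The genes described here encode the proteins of the cytosolic and of the mitochondrial ribosome, measured by RNA sequencing in GPR35-positive and GPR35-negative cells of the mouse colon that were sorted and labelled as macrophages. The rule that takes them reads the symbol and no measured value. Symbols of the form Rpl or Rps and a number, with Rplp0, Rplp1, Rplp2 and Rpsa, gave the cytosolic ribosome, and symbols starting with Mrpl or Mrps and a number gave the mitochondrial one. The rule took 165 of 14971 named genes, 87 of the cytosolic and 78 of the mitochondrial ribosome. Split by the letter l or s of the symbol, the cytosolic entries were 51 of the large and 36 of the small subunit. The mitochondrial entries, split in the same way, were 49 and 29. For a single protein this letter need not give its true subunit. Among the cytosolic entries 6 are pseudogenes by their symbol. All 165 entries had counts high enough to be tested.

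From the lamina propria, cells carrying MHC class II and CD64, a receptor for the Fc part of antibodies found on macrophages, were sorted by GPR35 staining. GPR35 is a G protein-coupled receptor of immune and epithelial cells. The GPR35-positive group holds 4 libraries and the GPR35-negative group 4, and each of 4 male mice gave 1 library to each group, so that replicate numbers 1 to 4 stand for the animals. All cells were separated from digested tissue after the epithelium was stripped. The labels used here state no strain, age, genotype or treatment.

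A ribosome joins amino acids in the order of a messenger RNA. Its small subunit reads the codons, and its large subunit links the amino acids. The cytosolic ribosome makes nearly all proteins of the cell. The mRNAs of its proteins start with a stretch of pyrimidines, the 5′ terminal oligopyrimidine or TOP motif, by which mTORC1 and the RNA-binding protein LARP1 control their translation together. The mitochondrial ribosome makes the few proteins encoded in mitochondrial DNA, all of them parts of the respiratory chain and of ATP synthase, but its own proteins are encoded in the nucleus and imported.

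Total counts were 33.8 to 48.6 M (counts in units of 1e6) in the GPR35-positive and 16.0 to 30.1 M in the GPR35-negative libraries. Gpr35 itself was at 73.3 ± 14.9 CPM (the count of a gene per 1e6 counts of its library, with libraries scaled by TMM, a trimmed mean of log ratios) in GPR35-positive and 2.97 ± 1.46 CPM in GPR35-negative libraries (SD, n = 4 each). The log2 difference was 4.60 ± 0.39 (SE, adjusted p = 1.07e-04 by edgeR), higher in 4 of 4 animals. Markers of macrophage identity took 4.44% to 4.91% of counts in GPR35-positive libraries, against 0.591% to 2.60% in GPR35-negative libraries. Of these, 18 of 20 were called higher, where 18.5% of all tested genes were called higher and 19.5% lower. Markers of B and plasma cells took 0.110% to 0.257% against 8.05% to 15.2%, and 13 of 13 tested were lower in GPR35-positive libraries. Most of the GPR35-negative sum was Jchain, the joining chain of antibodies, at 7.37% to 14.1% of counts. Stromal, endothelial and muscle markers took 0.0890% to 0.206% against 0.564% to 1.21% (10 of 15 lower), T and innate lymphoid markers 0.00507% to 0.00638% against 0.0377% to 0.0654% (9 of 13 lower), epithelial markers 0.00951% to 0.0175% against 0.0264% to 0.0856% (4 of 13 lower), and erythroid and glial markers 0.0179% to 0.0955% against 0.0850% to 0.659% (5 of 9 lower). Dendritic cell markers took 0.0174% to 0.0539% against 0.0111% to 0.0274% (4 of 10 higher), and granulocyte and mast cell markers 0.0119% to 0.0160% against 0.0137% to 0.0290% (1 higher and 2 lower of 9). With animals as a block the T and innate lymphoid list had 1 higher and 5 lower, and the erythroid and glial list 9 lower. The granulocyte and mast cell list then had 1 higher and 1 lower, where 19.4% of all tested genes were called higher and 20.0% lower. Among those listed at 0 in some library were Pax5 of the B cell list, Cd8a of the T and innate lymphoid list, Clec9a and Zbtb46 of the dendritic list, Slc26a3 and Tff3 of the epithelial list, Gfap and S100b of the glial list, and Cpa3, Cxcr2, Ly6g, Mcpt1, Mcpt2, S100a9 and Siglecf of the granulocyte and mast cell list. Against their label, the GPR35-negative libraries thus held more B and plasma cell than macrophage identity counts when Jchain was included. In GPR35-negative replicates 1 and 2 this rested on Jchain, at 7.37% and 14.1% within B and plasma sums of 8.05% and 15.2%. Macrophage identity markers took 2.60% and 1.23% there. The part of other cells in any result below was not tested. In sorted bulk samples, fewer cells of a type and less RNA per cell cannot be told apart.

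As shares of unscaled library totals, ribosomal protein transcripts took up less of the GPR35-positive than of the GPR35-negative libraries. On such totals the median log2 fold change of all tested genes was itself -0.34, so the ratios below are not particular to ribosomal genes in full. With TMM scaling the median cytosolic difference in replicate 2 was 0.03. Summed over the 87 cytosolic entries, the share of counts was 0.557%, 0.819%, 0.630% and 0.581% in GPR35-positive replicates 1 to 4, against 0.735%, 0.962%, 0.859% and 1.18% in GPR35-negative replicates 1 to 4. The GPR35-positive library was the lower one in each animal, although GPR35-positive replicate 2 stood above GPR35-negative replicate 1. The mean was 0.647 ± 0.119% in GPR35-positive and 0.933 ± 0.187% in GPR35-negative libraries (SD, n = 4 each), and the log2 ratio within animals was -0.40, -0.23, -0.45 and -1.02.

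For the 78 mitochondrial entries the summed share was 0.187%, 0.227%, 0.208% and 0.204% in GPR35-positive replicates 1 to 4, against 0.283%, 0.335%, 0.347% and 0.417% in GPR35-negative replicates 1 to 4. These groups did not overlap. The mean was 0.207 ± 0.016% in GPR35-positive and 0.346 ± 0.055% in GPR35-negative libraries, and the log2 ratio within animals was -0.59, -0.56, -0.74 and -1.03. Counts divided by transcript length gave 0.390 ± 0.022% in GPR35-positive and 0.662 ± 0.090% in GPR35-negative libraries for the mitochondrial ribosome, and 1.64 ± 0.261% in GPR35-positive and 2.41 ± 0.409% in GPR35-negative libraries for the cytosolic one. These sums are descriptions and were given no test.

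Set against each other within a library, the sums do not depend on how libraries are scaled. The mitochondrial sum over the cytosolic sum was 0.336, 0.277, 0.331 and 0.352 in GPR35-positive replicates 1 to 4, against 0.385, 0.348, 0.405 and 0.355 in GPR35-negative replicates 1 to 4. The ratio was lower in the GPR35-positive library of each animal, by little in replicate 4, and the groups overlapped there. Its mean was 0.324 in GPR35-positive and 0.373 in GPR35-negative libraries.

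**Figure D1:**
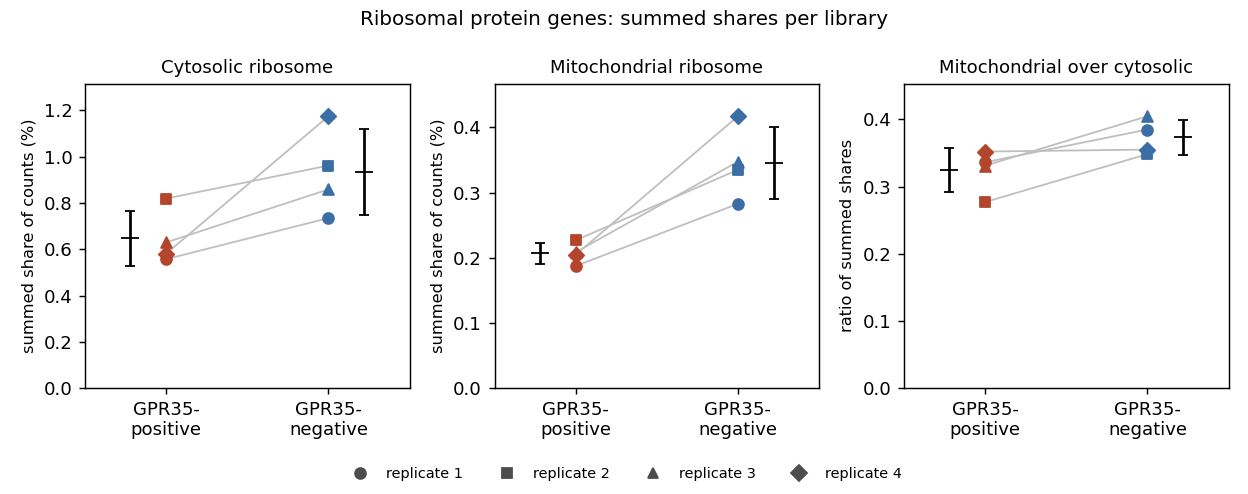
Summed share of counts (%) of the cytosolic entries (left) and the mitochondrial entries (middle), and the ratio of the sums (right), in each library. Points are libraries, lines join the libraries of an animal, and bars are mean ± SD of 4. The mitochondrial sums lie at 0.187% to 0.227% in GPR35-positive libraries and at 0.283% to 0.417% in GPR35-negative libraries, with no overlap.

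Single members of the cytosolic ribosome rarely passed the test. edgeR's quasi-likelihood test with Benjamini-Hochberg adjustment over 14184 genes called 2 of 87 higher and 5 lower in GPR35-positive libraries (2.30% and 5.75%), while 18.5% of all tested genes were called higher and 19.5% lower. The median log2 fold change was -0.20, against -0.05 over all tested genes, and 80 of 87 values were below 0. The median SE of a cytosolic member was 0.21. Of the 87, 33 (37.9%) were lower in the GPR35-positive library of all 4 animals, where 29.4% of all genes were, and 1 was higher in all 4, where 29.4% of all genes were. Only 2 members (2.30%) had every GPR35-positive library below every GPR35-negative one, against 20.6% of all genes, and 1 had the opposite separation, against 21.5%. The large subunit had 1 higher and 2 lower of 51 (median -0.20), and the small subunit 1 higher and 3 lower of 36 (median -0.23).

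The member with the smallest p was Rps27l (chromosome 9, 66944624 to 66949522 in GRCm38.p6), a p53-inducible paralog of the small-subunit protein Rps27. It stood at 78.2, 86.1, 85.7 and 85.5 CPM in GPR35-positive replicates 1 to 4, against 136, 194, 187 and 248 CPM in GPR35-negative replicates 1 to 4. The GPR35-positive libraries lay close together and the GPR35-negative ones were spread, with no overlap. On the log2 scale it fell by 1.19 ± 0.17 (SE, edgeR adjusted p = 0.00123), lower in 4 of 4 animals. Rps27 itself was at 28.0, 44.8, 27.7 and 25.4 CPM in GPR35-positive and 27.6, 39.1, 26.5 and 38.3 CPM in GPR35-negative replicates 1 to 4. Its groups overlapped fully, and it did not pass (-0.06 ± 0.23, edgeR adjusted p = 0.845). Per length, Rps27l over Rps27 was 1.85 to 3.24 in GPR35-positive and 4.75 to 6.79 in GPR35-negative libraries, a ratio that no scaling of the libraries changes. Among Rps27l's 50-base words 83.8% occurred in no other annotated gene.

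The large-subunit members that fell were Rpl38 and Rpl41. Rpl38 is known in mice for the translation of Hox mRNAs, and Rpl41 is a very short peptide at the face between the subunits. Rpl38 was at 13.7, 20.0, 14.0 and 12.4 CPM in GPR35-positive replicates 1 to 4, against 21.5, 30.3, 24.0 and 33.4 CPM in GPR35-negative replicates 1 to 4. The groups did not overlap (log2 fold change -0.86 ± 0.22, edgeR adjusted p = 0.0134), and the call ended without replicate 3 or without replicate 4. Rpl41 was at 155, 237, 151 and 142 CPM in GPR35-positive replicates, against 233, 290.1, 240.4 and 350.5 CPM in GPR35-negative replicates. GPR35-positive replicate 2 stood above GPR35-negative replicate 1, and the difference passed (-0.70 ± 0.21, edgeR adjusted p = 0.0266) but not with 8 of the 12 sets that leave out an animal or a library.

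In the small subunit Rps24, which is mutated in human Diamond-Blackfan anemia, also fell. Rps24 was at 49.4, 83.4, 54.1 and 54.6 CPM in GPR35-positive replicates 1 to 4, against 79.7, 119, 84.8 and 114 CPM in GPR35-negative replicates. Replicate 2 of the GPR35-positive group again overlapped the other group (-0.72 ± 0.21, edgeR adjusted p = 0.0247). Leaving out an animal or a library ended the Rps24 call in 7 of 12 cases.

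Rps9, which lies near the entry of the mRNA channel, and Rpl7l1, a paralog of Rpl7, were higher. Rps9 was at 334, 465, 331 and 294 CPM in GPR35-positive replicates 1 to 4, against 238, 232, 204 and 305 CPM in GPR35-negative replicates. It was higher in 3 animals and about equal in replicate 4 (log2 fold change 0.54 ± 0.19, edgeR adjusted p = 0.0476), and its call ended in 16 of 23 other settings, among them the fit with animals as a block (adjusted p = 0.0716). Rpl7l1 was at 97.5, 108, 114 and 111 CPM in GPR35-positive and 86.2, 69.4, 85.4 and 84.8 CPM in GPR35-negative replicates, with no overlap (0.40 ± 0.12, edgeR adjusted p = 0.0240). Its call ended in 9 of 23 settings, and with libraries scaled on the macrophage identity markers (identity scaling), which moved the median of all genes to -2.43, the values were -1.83 for Rps9 and -1.99 for Rpl7l1, both above that median. Rpl7 was at 121 ± 23.2 CPM in GPR35-positive and 126 ± 19.3 CPM in GPR35-negative libraries (SD, n = 4 each) and did not pass (-0.06 ± 0.17, edgeR adjusted p = 0.791).

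**Figure D2:**
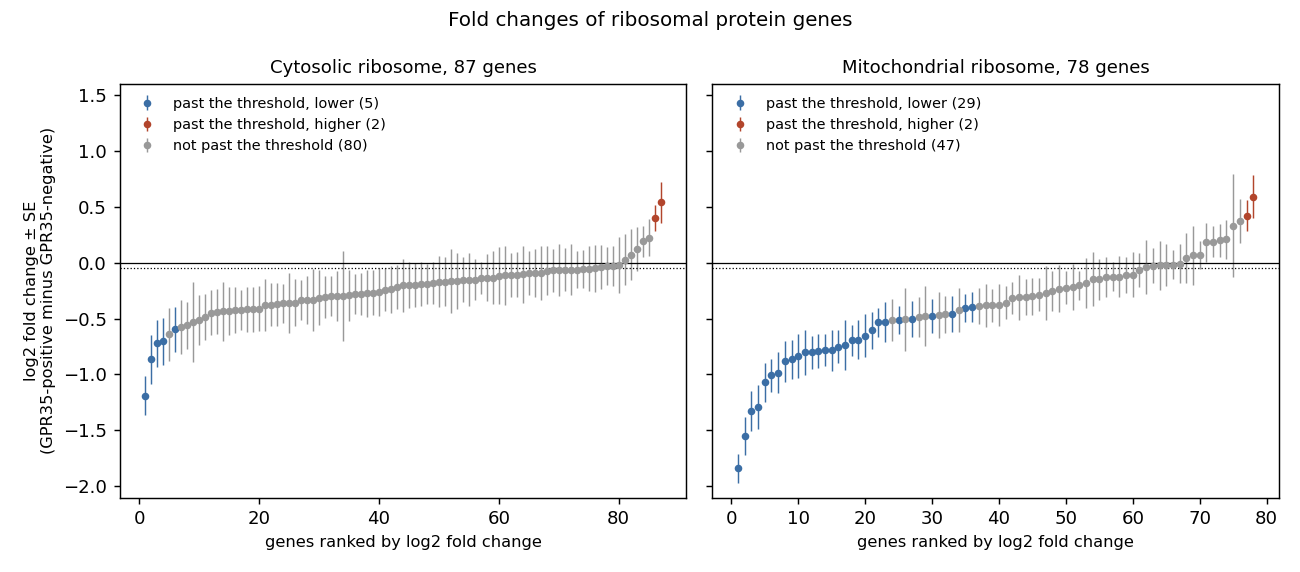
Log2 fold change (GPR35-positive minus GPR35-negative) with its SE for each cytosolic (left) and mitochondrial (right) entry, ranked. The dotted line is the median of all tested genes, -0.05. Cytosolic values spread from -1.19 to 0.54 with 5 lower and 2 higher calls, and mitochondrial values from -1.84 to 0.59 with 29 lower and 2 higher calls.

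What the cytosolic members shared was the order of the libraries within each group. In the GPR35-positive group, replicate 2 was the highest library for 85 of 87 members (97.7%), where it was the highest for 26.2% of all tested genes. In the GPR35-negative group, replicates 2 and 4 both stood above replicates 1 and 3 for 82 of 87 members (94.3%), against 16.9% of all genes, and replicate 4 was the highest for 75. The median member of GPR35-positive replicate 2 stood 0.41 above its group mean on the log2 CPM scale, and those of replicates 1, 3 and 4 stood at -0.16, -0.08 and -0.15. In GPR35-negative replicates 1 to 4 the medians were -0.32, 0.14, -0.17 and 0.34. After the group means were removed, the mean pairwise correlation over the 8 libraries was 0.84 among cytosolic and 0.42 among mitochondrial members, against 0.01 among all tested genes. These correlations share the same 8 libraries and are descriptions. In the GPR35-negative group Jchain took 7.37%, 14.1%, 11.5% and 10.6% of counts in replicates 1 to 4, and the macrophage identity markers 2.60%, 1.23%, 0.591% and 0.804%. Whether either moves the ribosomal protein genes was not tested.

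The common order also shows in the differences within animals. The median cytosolic difference was -0.08, 0.03, -0.17 and -0.70 in replicates 1 to 4, while the median of all genes was 0.02, 0.00, -0.09 and 0.01. Replicate 4 joins a low GPR35-positive library with the highest GPR35-negative one. Without that animal the cytosolic median was -0.05, against -0.04 for all genes. Then 1 cytosolic member was called lower, and 1680 of 14233 tested genes were. Without GPR35-positive replicate 2 the cytosolic median was -0.38, against -0.06 for all genes. In that fit 9 cytosolic members and 2414 of 14458 tested genes were lower.

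**Figure D3:**
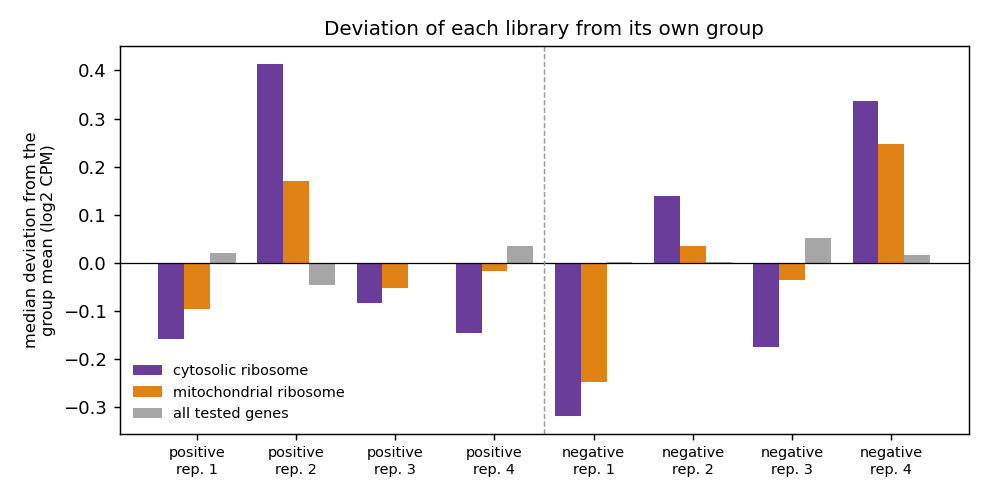
Median deviation of each library from the mean of its own group (log2 CPM) for cytosolic entries, mitochondrial entries and all tested genes. Cytosolic entries reach 0.41 in GPR35-positive replicate 2 and 0.34 in GPR35-negative replicate 4, and the mitochondrial entries follow with 0.17 and 0.25.

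The starts of the cytosolic genes are shown because their TOP motif is the letter pattern the family is known for. RefSeq promoter windows of GRCm38.p6, from 250 bases before the annotated start to 50 after it, matched 61 cytosolic and 69 mitochondrial members. Several genes have more than 1 annotated start there, and a gene was counted when any of them held the letters. A C followed by 4 more pyrimidines exactly at an annotated start was present in 13 of 61 cytosolic members (21.3%), in 0 of 69 mitochondrial members and in 344 of 11759 listed genes (2.93%). A run of 8 pyrimidines within 20 bases of the start was present in 49.2% of cytosolic, 18.8% of mitochondrial and 19.4% of all listed genes. Each line gives 35 bases before the first listed start and 15 from it, with the pyrimidines that begin at the start in capitals, and CCGGAAG or its reverse complement CTTCCGG, the core letters bound by ETS family factors, in capitals as well. Rps6 (chr4:86857353-86857402, minus strand, the protein that S6 kinase phosphorylates), Rps18 (chr17:33955651-33955700, minus strand), Rps27 (chr3:90213634-90213683, minus strand) and Rpl38 (chr11:114668545-114668594, plus strand) carry a C and 4 pyrimidines at the start, and Rps27l (chr9:66946051-66946100, plus strand) and Rps9 (chr7:3704006-3704055, plus strand) do not, although both hold a run of 8 pyrimidines within 20 bases of an annotated start.
Rps6: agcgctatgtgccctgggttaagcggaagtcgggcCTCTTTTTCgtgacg
Rps18: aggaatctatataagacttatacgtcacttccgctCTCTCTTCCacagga
Rps27: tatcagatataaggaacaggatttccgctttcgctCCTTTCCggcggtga
Rpl38: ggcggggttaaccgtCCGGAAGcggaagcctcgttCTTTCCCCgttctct
Rps27l: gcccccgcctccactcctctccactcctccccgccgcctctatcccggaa
Rps9: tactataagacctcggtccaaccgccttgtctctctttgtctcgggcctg

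The 13 members with a pyrimidine start had a median log2 fold change of -0.20 with 1 lower call, Rpl38, and the 48 without it -0.24 with 2 higher and 3 lower calls, where 18.5% of all genes were called higher and 19.5% lower. In GPR35-positive replicate 2 the medians of the 13 and the 48 stood 0.43 and 0.41 above the group mean. The high position of this library was present on both sides of the split. Rps6 was at 76.7, 123, 85.4 and 85.8 CPM in GPR35-positive replicates 1 to 4 and at 78.5, 115, 105 and 123 CPM in GPR35-negative replicates, and did not pass (-0.18 ± 0.19, edgeR adjusted p = 0.476). An annotated start may differ from the start used in these cells, and a missing pyrimidine run says only that these letters are not at that position. For Rps27l and Rps9 the printed start lies inside the gene, whose annotated span begins at 66944624 and 3703954. Their printed letters are thus not those of the outer end of the gene.

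Levels between genes were compared per length, as TPM averaged over the 8 libraries. Among the highest cytosolic members were Rpl32 (1190 TPM), Rpl41 (1008 TPM), Rps14 (948 TPM) and Rps9 (823 TPM), and the lowest were Rps23 (10.3 TPM), Rpl31 (14.7 TPM) and Rpl12 (14.8 TPM). The median cytosolic member stood at 161 TPM and the median mitochondrial member at 56.1 TPM, against 13.9 TPM over all tested genes. The share of a member's 50-base words found in no other annotated gene had a median of 61.5% for cytosolic and 97.2% for mitochondrial members, and it was under 50% for 32 cytosolic and 5 mitochondrial members. Across the 87 cytosolic members this share and the TPM level correlated at r = 0.07, and the share and the log2 fold change at r = 0.04, both descriptions across genes.

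The acidic stalk, which draws elongation factors to the ribosome, is made of Rplp0, Rplp1 and Rplp2. Rplp0 was at 377, 524, 397 and 392 CPM in GPR35-positive replicates 1 to 4, against 406, 580, 471 and 619 CPM in GPR35-negative replicates. It was lower in 4 of 4 animals, but the groups overlapped and it did not pass (-0.30 ± 0.18, edgeR adjusted p = 0.214). Rplp1 was at -0.31 ± 0.19 (edgeR adjusted p = 0.229) and Rplp2 at -0.03 ± 0.18 (adjusted p = 0.913). Rpsa, which also serves as a laminin receptor, was at 63.0, 108, 71.8 and 81.0 CPM in GPR35-positive and 68.3, 105, 92.2 and 130.3 CPM in GPR35-negative replicates, and did not pass (-0.29 ± 0.23, adjusted p = 0.335). Rpl5 and Rpl11, which with 5S RNA can bind the p53 regulator Mdm2, had log2 fold changes of -0.38 and -0.09 and did not pass.

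Among the paralogs, Rps27l and Rpl7l1 passed, and Rpl22l1 (-0.27 ± 0.20), Rpl22 (-0.15 ± 0.20), Rps4l (-0.11 ± 0.26), Rps4x (-0.19 ± 0.20), Rpl3 (0.19 ± 0.14), Rpl10 (-0.15 ± 0.18) and Rpl39 (0.03 ± 0.23) did not. Per length, Rpl22l1 over Rpl22 was 2.43 to 2.96 in GPR35-positive and 2.80 to 2.88 in GPR35-negative libraries. The ratio of Rpl7l1 to Rpl7 was 0.248 to 0.382 in GPR35-positive and 0.184 to 0.299 in GPR35-negative libraries, with overlap.

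The 6 pseudogene entries are copies whose reads the counting could split from the parent gene, so their counts are uncertain. Their log2 fold changes ran from -0.43 for Rpl34-ps1 to -0.12 for Rps19-ps3, and 0 of 6 passed. Rpl34-ps1 had no 50-base word of its own and stood at 1.56 to 1.59 times Rpl34 per length in GPR35-positive and 1.49 to 1.52 times in GPR35-negative libraries. Rpl14-ps1 stood at 2.34 to 2.59 times Rpl14 in GPR35-positive and 2.28 to 2.49 times in GPR35-negative libraries. Rps15a-ps4, Rps15a-ps6 and Rpl31-ps12 were at -0.38 ± 0.23, -0.33 ± 0.27 and -0.17 ± 0.28. Without the pseudogene entries the cytosolic counts of 2 higher and 5 lower were the same, of 81.

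More members of the mitochondrial ribosome passed the test. Of its 78 members 29 (37.2%) were lower in GPR35-positive libraries, against a background of 19.5%, and 2 (2.56%) were higher, against 18.5%. The median log2 fold change was -0.38, with a middle range from -0.64 to -0.11, and 67 of 78 values were below 0. Of the 78, 46 (59.0%) were lower in all 4 animals, against 29.4% of all genes, and 25 (32.1%) had every GPR35-positive library below every GPR35-negative one, against 20.6%. By the letter of the symbol, the large subunit had 18 lower and 2 higher of 49 (median -0.38). The small subunit had 11 lower of 29 and 0 higher (median -0.32). Among the 48 members with at least 90% words of their own, 22 were lower and 1 higher. The lower count was 14 without replicate 4 and 16 without replicate 3. Over all genes these fits called 1680 of 14233 and 1712 of 14034 lower, against 2769 of 14184 in the main fit.

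Mrpl57, a large-subunit protein, had the smallest p. It stood at 27.3, 33.5, 26.9 and 29.9 CPM in GPR35-positive replicates 1 to 4, against 90.7, 117, 109 and 104 CPM in GPR35-negative replicates. The values are well apart, and the within-animal differences were close to each other, at -1.73, -1.80, -2.02 and -1.80. On the log2 scale it fell by 1.84 ± 0.13 (SE, edgeR adjusted p = 4.39e-05). Mrpl57 did not show the library order of the cytosolic members in the GPR35-negative group, since replicate 2 and replicate 3 were its highest libraries there.

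Mrps28 and Mrps12 led the small subunit. Mrps28 was at 14.7, 18.3, 19.4 and 18.1 CPM in GPR35-positive replicates 1 to 4, against 39.5, 58.8, 52.7 and 55.7 CPM in GPR35-negative replicates, with no overlap (-1.55 ± 0.17, edgeR adjusted p = 2.78e-04). Mrps12, the counterpart of the bacterial decoding-centre protein S12, was at 19.9, 24.0, 20.9 and 20.2 CPM against 36.5, 44.6, 39.3 and 50.5 CPM (-1.01 ± 0.15, edgeR adjusted p = 0.00122). Both were lower in 4 of 4 animals.

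In the large subunit Mrpl13, the counterpart of bacterial L13, and Mrpl51 followed. Mrpl13 was at 33.5, 34.3, 34.9 and 42.3 CPM in GPR35-positive replicates 1 to 4, against 63.9, 108, 89.3 and 102 CPM in GPR35-negative replicates, with no overlap (-1.32 ± 0.18, edgeR adjusted p = 8.66e-04). Mrpl51 was at 22.8, 27.2, 30.2 and 30.8 CPM against 48.1, 51.9, 57.6 and 74.9 CPM (-1.07 ± 0.17, edgeR adjusted p = 0.00199). Mrpl53 was at 11.7, 9.88, 9.09 and 8.61 CPM against 20.3, 24.0, 21.7 and 30.3 CPM (-1.29 ± 0.20, edgeR adjusted p = 0.00143), but it shares all its 50-base words with another annotated gene, so its count is uncertain. Mrpl54, among the 5 mitochondrial members highest per length at 168 TPM, was at 35.6 ± 6.04 CPM in GPR35-positive and 61.5 ± 5.78 CPM in GPR35-negative libraries (-0.79 ± 0.15, edgeR adjusted p = 0.00370).

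The 29 lower members ran from -1.84 for Mrpl57 to -0.40 for Mrpl15. Of the 29, 14 held their call in all 23 other settings tried, namely Mrpl13, Mrpl17, Mrpl18, Mrpl37, Mrpl46, Mrpl51, Mrpl53, Mrpl54, Mrpl57, Mrps12, Mrps18b, Mrps24, Mrps28 and Mrps34. A further 9 lost it only in sets that left out an animal or a library. Scaling by library size only and identity scaling called 4193 and 11757 of 14184 genes lower, so they could hardly end a lower call. The share of all lower genes that held in every setting is not given here. Mrps18b and Mrps34 had 44.0% and 47.6% words of their own, so their counts are less certain. Of the 3 Mrps18 paralogs, which sit at different places in the mitochondrial ribosome, Mrps18b was lower (20.5 ± 0.85 CPM in GPR35-positive and 37.9 ± 8.36 CPM in GPR35-negative libraries; -0.88 ± 0.18, edgeR adjusted p = 0.00529). Mrps18a (-0.36 ± 0.15, adjusted p = 0.0843) and Mrps18c (-0.48 ± 0.18, adjusted p = 0.0593) did not pass, though each was lower in 4 of 4 animals, and Mrps18c passed with animals as a block (adjusted p = 0.0362). Mrpl58, a peptidyl-tRNA hydrolase that frees stalled ribosomes, was lower (-0.69 ± 0.17, edgeR adjusted p = 0.0136).

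Other members with known roles did not pass. Mrpl12, the stalk protein that also binds the mitochondrial RNA polymerase, had a log2 fold change of -0.38, and Mrps30 one of -0.07. Mrps36, known also as a part of the 2-oxoglutarate dehydrogenase complex, was at -0.02. The highest mitochondrial member per length, Mrpl33 (239 TPM), was at 51.2, 82.8, 55.9 and 54.5 CPM in GPR35-positive and 46.3, 52.7, 52.3 and 60.2 CPM in GPR35-negative replicates (0.21 ± 0.18, edgeR adjusted p = 0.371). Mrpl42 (196 TPM; -0.39 ± 0.16) and Mrps21 (194 TPM; -0.52 ± 0.19) were close to the threshold without passing it, and Mrpl42 passed with animals as a block (adjusted p = 0.0441). The lowest were Mrpl23 (5.53 TPM), Mrpl19 (10.5 TPM) and Mrps25 (10.7 TPM), at 0.33 ± 0.46, -0.01 ± 0.18 and 0.06 ± 0.26. Across the 78 members the TPM level and the log2 fold change correlated at r = -0.39 and rho = -0.47, a description across genes of the same libraries.

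The members that were higher were Mrpl41 and Mrpl52, both of the large subunit. Mrpl41 was at 35.5, 52.3, 31.7 and 37.9 CPM in GPR35-positive replicates 1 to 4, against 28.7, 30.3, 22.3 and 23.2 CPM in GPR35-negative replicates (0.59 ± 0.19, edgeR adjusted p = 0.0376). Mrpl52 was at 45.5, 52.7, 43.6 and 36.1 CPM against 33.7, 32.7, 30.9 and 35.6 CPM (0.42 ± 0.14, edgeR adjusted p = 0.0440). Neither gene's groups overlapped, but the calls ended in 13 and 18 of 23 settings, and with identity scaling the values were -1.70 and -1.94, above the median of all genes at -2.43.

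**Figure D4:**
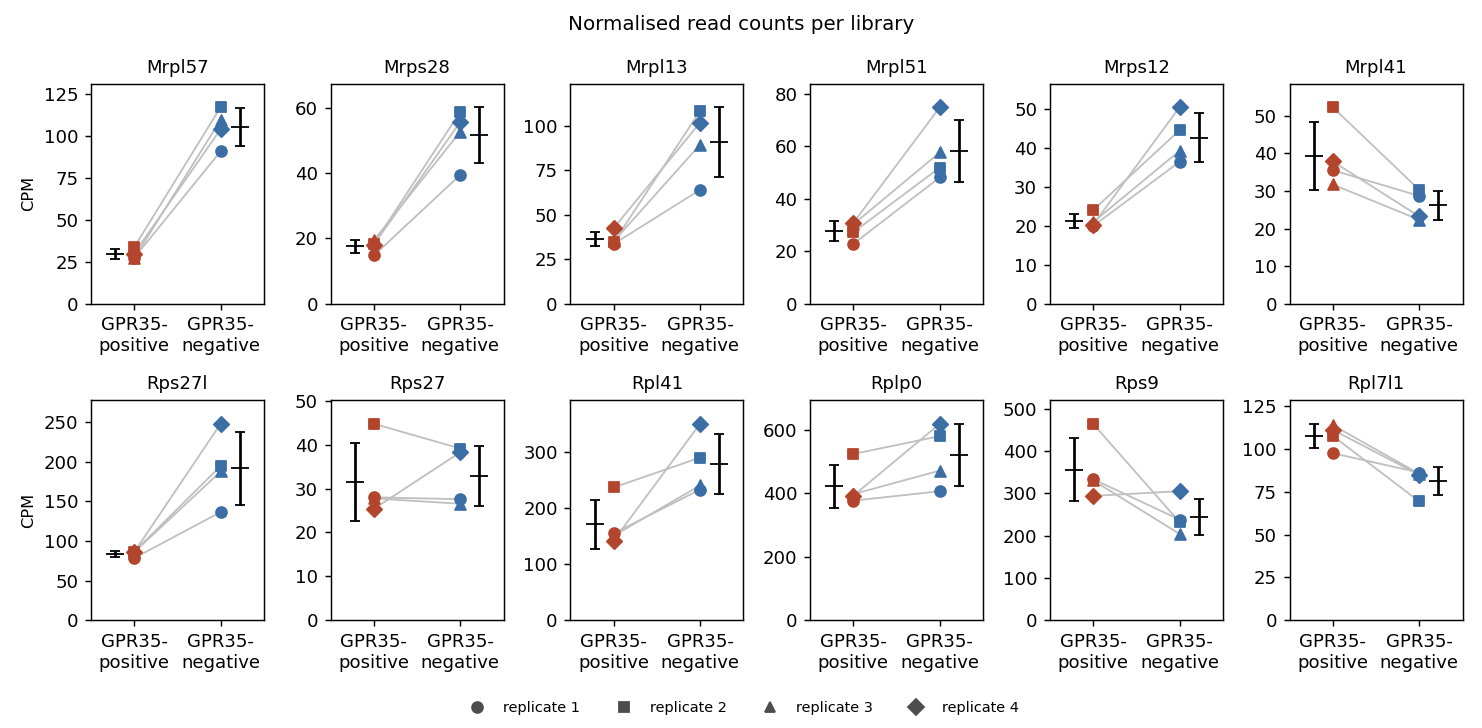
Normalised read counts (CPM) of 12 members in each library, GPR35-positive on the left of each panel. Points are libraries, lines join an animal and bars are mean ± SD of 4. Mrpl57, Mrps28, Mrpl13, Mrpl51, Mrps12 and Rps27l separate downward, Mrpl41 and Rpl7l1 separate upward, and Rps27, Rplp0, Rpl41 and Rps9 overlap.

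The starts of mitochondrial members are shown for the letters CCGGAAG, read on both strands, which occurred in the promoter windows of 26 of 69 mitochondrial members (37.7%), 25 of 61 cytosolic members (41.0%) and 2136 of 11759 listed genes (18.2%). Mrpl57 (chr14:57826204-57826253, plus strand), Mrps12 (chr7:28741807-28741856, minus strand) and Mrpl53 (chr6:83109073-83109122, plus strand), which were lower, and Mrpl52 (chr14:54426874-54426923, plus strand), which was higher, hold it within the 50 bases printed, and Mrpl51 (chr6:125192165-125192214, plus strand) and Mrpl41 (chr2:24975084-24975133, minus strand) do not. Mrpl51 holds the core elsewhere in its promoter windows and is counted among the 26, while Mrpl41 is not. Capitals mark the core in the printed bases.
Mrpl57: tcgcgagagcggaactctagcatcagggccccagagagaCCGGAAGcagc
Mrps12: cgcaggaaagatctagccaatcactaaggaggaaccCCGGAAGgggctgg
Mrpl53: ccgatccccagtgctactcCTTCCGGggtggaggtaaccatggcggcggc
Mrpl52: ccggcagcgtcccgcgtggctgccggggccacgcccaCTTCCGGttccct
Mrpl51: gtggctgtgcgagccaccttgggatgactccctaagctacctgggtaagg
Mrpl41: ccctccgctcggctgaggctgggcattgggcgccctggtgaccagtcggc

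The 26 mitochondrial members with the core had a median log2 fold change of -0.47 with 11 lower and 1 higher, and the 43 without it -0.31 with 12 lower and 1 higher, where 19.5% of all genes were called lower and 18.5% higher. Other letters searched on both strands over the same windows were AAGATGGC, bound by YY1 (12 of 69 mitochondrial, 6 of 61 cytosolic and 4.75% of all listed genes), and the E-box CACGTG (5 of 69, 6 of 61 and 11.3%). Letters bound by NRF1 were searched as well, in the same way. They were present in 3 of 69 mitochondrial and 2 of 61 cytosolic members and in 2.04% of all listed genes. None of these shares was tested.

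The scaling of the libraries moves all of these values together. With the library size as the only scaling, the median of all genes was -0.34, and 11.9% of all genes were called higher and 29.6% lower. Cytosolic members then had a median of -0.50 with 0 higher and 30 lower, and mitochondrial members -0.68 with 0 higher and 49 lower. With macrophage identity genes as the scaling base the median of all genes was -2.43, with 93 genes higher and 11757 lower. The cytosolic median was then -2.63 and the mitochondrial one -2.81, and 87 of 87 and 77 of 78 were lower. In these scalings, as in the TMM fit, the mitochondrial median lay below the cytosolic one, and that below the median of all genes. A change of scaling shifts all genes nearly alike, so this order could hardly change and is no separate support. With animals as a block, 19.4% of all genes were called higher and 20.0% lower, the cytosolic ribosome had 1 higher and 6 lower, and the mitochondrial one had 1 higher and 26 lower, of which 24 were among the 29.

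Genes that make and serve ribosomes were taken from lists chosen with earlier results of these data known. For ribosomal proteins under other symbols, the cytosolic list had 1 lower of 4, where 19.5% of all tested genes were called lower and 18.5% higher. That gene was Rpl36al, a paralog of Rpl36a, at 60.7 ± 8.59 CPM in GPR35-positive and 189 ± 41.5 CPM in GPR35-negative libraries (-1.64 ± 0.18, edgeR adjusted p = 3.49e-04). Rack1 and Fau, at -0.45 ± 0.17 and 0.09 ± 0.18, did not pass, and Rack1 passed with animals as a block (adjusted p = 0.0469). Rpl36al and Rps27l, which were lower, are paralogs of Rpl36a and Rps27, which were not called (-0.43 ± 0.26 and -0.06 ± 0.23). Of 6 mitochondrial ribosomal proteins in such a list, Gadd45gip1 (-0.68 ± 0.18), Chchd1 (-0.63 ± 0.17), Aurkaip1 (-0.52 ± 0.16) and the member Mrpl58 were lower, and Dap3 and Ptcd3 (-0.15 ± 0.15 and -0.10 ± 0.17) did not pass.

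Genes of rRNA synthesis and processing stand here against 18.5% of all tested genes called higher and 19.5% lower. Of 15 genes of RNA polymerase I and its factors 1 was higher, Twistnb (0.48 ± 0.12, edgeR adjusted p = 0.0116), and 0 lower, with a median of 0.06. Of 39 genes of rRNA processing and ribosome assembly 3 were higher and 3 lower, with a median of -0.07. Those higher were Heatr1 (1.94 ± 0.35), Pes1 (0.60 ± 0.12) and Gnl2 (0.49 ± 0.13), and those lower were Gnl3 (-0.46 ± 0.15), Eif6 (-0.42 ± 0.13) and Tsr1 (-0.37 ± 0.13). With animals as a block 1 of the list was lower, and Eif6 (adjusted p = 0.0565) and Tsr1 (adjusted p = 0.0715) in edgeR did not pass. The precursor rRNA entry Rn45s was lower (-0.78 ± 0.19, edgeR adjusted p = 0.0127). It took 0.154%, 0.212%, 0.151% and 0.146% of counts in GPR35-positive replicates 1 to 4, against 0.352%, 0.312%, 0.297% and 0.431% in GPR35-negative replicates. Whether this count follows rRNA synthesis was not tested.

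Over all tested genes 18.5% were called higher and 19.5% lower. Among the factors that work with the cytosolic ribosome, 3 of 36 initiation factors were higher and 9 lower (median -0.04). Higher were Eif4g3 (1.02 ± 0.22), Eif4a1, the cap-binding complex helicase (0.74 ± 0.11), and Eif4b (0.36 ± 0.10), and the smallest p among the lower ones were those of Eif3g (-1.03 ± 0.14), Eif1ax (-1.16 ± 0.19) and Eif2b4 (-0.64 ± 0.12). Of 12 elongation and termination factors 4 were lower and 0 higher (median -0.34), among them Eef1d (-0.76 ± 0.14), Eif5a (-0.59 ± 0.15) and the termination factor Gspt1 (-0.46 ± 0.10). The cytosolic aminoacyl-tRNA synthetases, which load tRNAs, had 14 lower and 0 higher of 20 (median -0.58), led by Yars (43.0 ± 3.12 CPM in GPR35-positive and 134 ± 14.9 CPM in GPR35-negative libraries; -1.63 ± 0.12), Mars (-1.12 ± 0.11) and Vars (-1.75 ± 0.19). Of 18 genes of the mTORC1 axis and Myc 3 were higher, Deptor (1.43 ± 0.23), Rptor (1.15 ± 0.34) and Eif4ebp1 (0.42 ± 0.14), and 2 lower, Rps6kb2 (-0.61 ± 0.13) and Tbc1d7 (-0.96 ± 0.24), with a median of 0.05, and Eif4ebp1 did not pass with animals as a block (edgeR adjusted p = 0.0754). Identity scaling moved the median of all genes to -2.43, and the named higher genes of these lists were then below 0 and above that median, Heatr1 at -0.35.

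The partners of the mitochondrial ribosome were counted against the same shares of all genes, 18.5% higher and 19.5% lower. Of 16 genes of mitochondrial ribosome assembly 4 were higher and 0 lower (median 0.11), among them Rbfa (0.78 ± 0.17), Ddx28 (0.60 ± 0.15) and Fastkd2 (0.85 ± 0.24). Of 14 mitochondrial translation factors 1 was higher, Gfm2, which takes part in ribosome recycling (1.13 ± 0.17, edgeR adjusted p = 0.00138), and 0 lower (median -0.09). Of 20 genes of mitochondrial aminoacyl-tRNA formation 1 was higher, Gatc (0.57 ± 0.17), and 1 lower, Lars2 (-1.17 ± 0.25), with a median of 0.21. Within animals the Lars2 difference was -1.40, -0.18, -1.31 and -1.56 in replicates 1 to 4. Words shared with other genes were not counted for Lars2. The medians of the assembly list were above 0 in each animal, at 0.13, 0.20, 0.30 and 0.21 in replicates 1 to 4, while those of the mitochondrial ribosomal proteins were -0.23, -0.24, -0.39 and -0.59. With identity scaling Rbfa, Ddx28, Fastkd2, Gfm2 and Gatc were at -1.495, -1.76, -1.63, -1.12 and -1.77, above the median of all genes at -2.43.

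**Figure D5:**
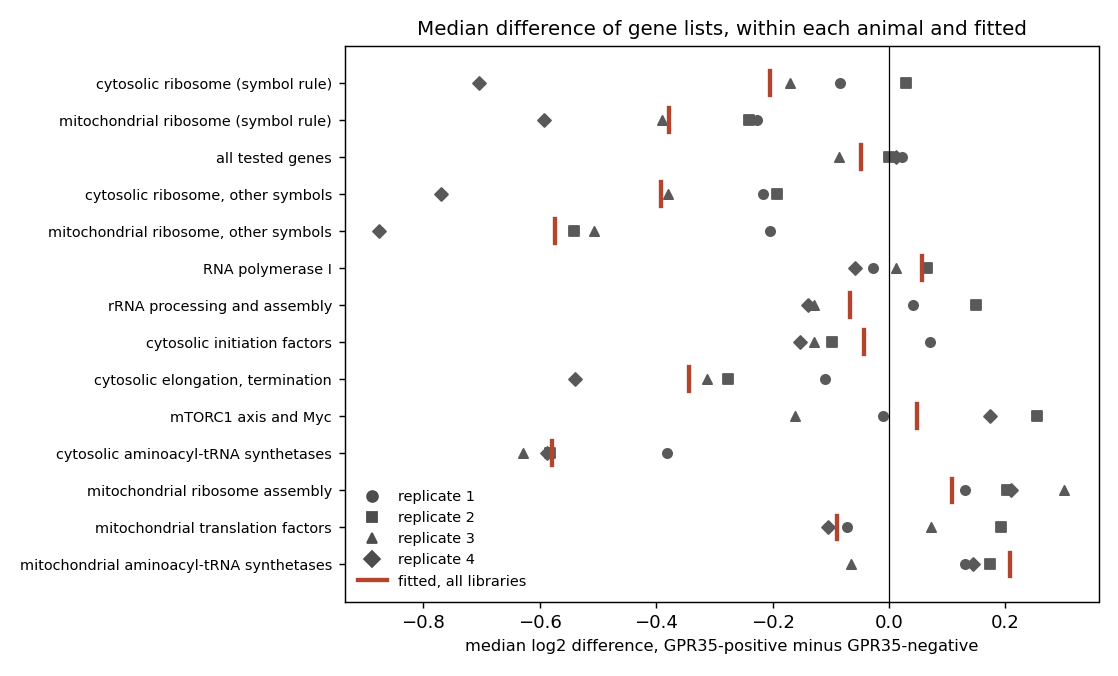
Median log2 difference (GPR35-positive minus GPR35-negative) of each gene list within each of 4 animals (grey points) and fitted over all libraries (coloured ticks). The mitochondrial ribosome lies below 0 in each animal and the cytosolic one in 3 of 4, with replicate 4 lowest at -0.59 and -0.70, and the cytosolic aminoacyl-tRNA synthetases at -0.38 to -0.63.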

How the data were processed

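RNA of sorted cells was amplified with SMART-Seq v4 and made into Nextera XT libraries, per the labels' protocols, kits that keep no strand and add no molecular identifiers. The authors deposited raw counts per gene with a gene length. The submitters' processing notes list STAR 2.5.2a, R 3.4.2 and the build mm10, while a counter or annotation is not given in the sources used here. Rows without a symbol (9, with 0.0179% of counts) were left out. The members and gene lists were chosen with earlier results of these data known.

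Counts were tested with edgeR 4.0.16 in R 4.3.3 (filterByExpr with a minimum count of 10 and total of 15, TMM scaling, robust quasi-likelihood test, Benjamini-Hochberg adjustment, threshold 0.05) without a block, on all 8 libraries, and the code was tested on simulated data. An SE is the log2 fold change over the root of its F statistic. TPM uses the deposited length. Named by rule were, for each ribosome and direction, up to 6 called members with the smallest p, the 5 highest and 3 lowest members per length, paralog pairs, the stalk proteins, Rpsa, pseudogene entries, up to 3 called genes per list and direction, ribosomal proteins under other symbols, Rn45s and Gpr35. Rps6, Rpl5, Rpl11, Rpl36a, Mrpl12, Mrps30, Mrps36 and members named for a change between settings were chosen after their values were seen. Words of 50 bases were counted in GENCODE vM21 transcripts. The animal named in the labels pairs the libraries, and deviations of an animal's libraries correlated at 0.206, 0.206, 0.431 and 0.0637. Replicates differed beyond sampling noise (chi-square per degree of freedom at least 26.1). Alternatives were other scalings and filters, the block, DESeq2 1.42.0, limma 3.58.1 (voom), thinning, and leaving out each animal or library. A few genes that these rules and lists take are counted but not reported here by name.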

Additional observations from a re-analysis of the deposited data

Results flagged for a closer look

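Within a group of 4 libraries, a library was marked when its gap to the nearest other, divided by the group's range, passed Dixon's critical value for 4 samples at 95%. Chance marks about 1 in 20 groups, and 17 of 110 groups were marked. In 13 of the 17, GPR35-positive replicate 2 was high. Its values were 237 CPM for Rpl41, 524 CPM for Rplp0, 146 CPM for Rplp1, 76.5 CPM for Rplp2, 148 CPM for Rpl3, 67.0 CPM for Rpl34-ps1, 318 CPM for Rps14, 21.7 CPM for Rps15a-ps4, 83.4 CPM for Rps24, 44.8 CPM for Rps27 and 127 CPM for Rps4x, and in the mitochondrial ribosome 82.8 CPM for Mrpl33 and 44.6 CPM for Mrpl54. The other marks were GPR35-positive replicate 4 high for Mrpl13 at 42.3 CPM, GPR35-positive replicate 1 low for Rps27l at 78.2 CPM, GPR35-negative replicate 4 high for Mrpl19 at 34.9 CPM and GPR35-negative replicate 2 low for Rpl7l1 at 69.4 CPM. The members share these libraries, so their marks are not independent.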

How the results depend on the processing

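Under TMM 2 cytosolic members were called higher and 5 lower, and 2 mitochondrial members higher and 29 lower. In the same order, the counts were 1 and 6, and 1 and 26, with the replicate block, 1 and 5, and 1 and 29, with RLE scaling, 0 and 30, and 0 and 49, with library size only. They were 0 and 10, and 0 and 36, with upper-quartile scaling, 0 and 87, and 0 and 77, with identity scaling, 0 and 7, and 0 and 35, with a 5 CPM minimum. They were 2 and 7, and 2 and 33, with DESeq2, 2 and 13, and 1 and 32, with DESeq2 with the block, 2 and 12, and 1 and 33, with voom. All genes had 2617 higher and 2769 lower under TMM, 2755 and 2830 with the replicate block, 2506 and 2879 with RLE scaling, 1692 and 4193 with library size only and 2154 and 3354 with upper-quartile scaling. They had 93 and 11757 with identity scaling, 2327 and 2564 of 10800 with the 5 CPM minimum, 2983 and 3600 with DESeq2, 3282 and 3619 with DESeq2 and the block, and 3072 and 3287 with voom. Replicates left out gave 0 to 2 higher and 1 to 14 lower cytosolic members, and 0 to 1 higher and 14 to 38 lower mitochondrial members. The lower cytosolic count was 1 without replicate 3 or 4, 2 when any of GPR35-positive replicates 1, 3 and 4 or of GPR35-negative replicates 2 and 4 was omitted, 9 when GPR35-positive replicate 2 was left out and 14 when GPR35-negative replicate 1 was. Without replicate 3 all genes had 1572 higher and 1712 lower calls, and without replicate 4 1624 and 1680. They had 2247 and 2414 without GPR35-positive replicate 2, and 2931 and 3035 without GPR35-negative replicate 1. With macrophage identity scaling, where the median of all genes was -2.43, log2 fold changes of the opposite sign were Ddx28 -1.76, Deptor -0.89, Eif4a1 -1.63, Eif4b -1.98, Eif4ebp1 -1.92, Eif4g3 -1.26, Fastkd2 -1.63, Fau -2.31, Gatc -1.77, Gfm2 -1.12, Gnl2 -1.90, Heatr1 -0.35, Mrpl23 -2.02, Mrpl33 -2.20, Mrpl41 -1.70, Mrpl52 -1.94, Mrps25 -2.43, Pes1 -1.78, Rbfa -1.495, Rpl3 -2.18, Rpl39 -2.33, Rpl7l1 -1.99, Rps9 -1.83, Rptor -1.12 and Twistnb -1.88. With library size only, they were Fau -0.20, Mrpl33 -0.086, Mrps25 -0.23, Rpl3 -0.098 and Rpl39 -0.26. With upper-quartile scaling, they were Fau -0.049, Mrps25 -0.080 and Rpl39 -0.11. With the replicate block, they were Mrpl19 0.0046 and Rpl39 -0.00084. With at least 5 CPM in 4 libraries, they were Mrps25 -0.021 and Rpl39 -0.053. After thinning, it was Mrps25 -0.033. With limma voom, they were Ptcd3 0.0064, Rpl31 0.022 and Rpl39 -0.11. With DESeq2 and the replicate block, it was Rpl39 -0.026. Leaving out an animal or library turned the sign of genes that had not passed, with ranges over these sets of Fau -0.066 to 0.27, Mrpl19 -0.083 to 0.18, Mrps25 -0.063 to 0.39, Ptcd3 -0.20 to 0.099, Rpl22 -0.29 to 0.054, Rpl31 -0.12 to 0.19, Rpl39 -0.20 to 0.21, Rpl7 -0.20 to 0.045, Rplp2 -0.16 to 0.15, Rps19-ps3 -0.30 to 0.19, Rps27 -0.27 to 0.11 and Rps4l -0.21 to 0.021. The block ended the calls of Rps9, Mrpl52, Mrpl10, Mrpl15, Mrpl4, Mrps10 and Mrps26 and added Rpl27, Mrpl42 and Mrps18c, and it changed no other member's call. Among the named list genes it ended the calls of Eif6, Tsr1 and Eif4ebp1 and added Rack1. Of the single-gene and summary values under other settings, 822 kept direction and side of the threshold, 44 lost and 68 gained a call, and when an animal or library was left out 869 kept both, 145 lost and 10 gained a call. The cause was not tested. The summed shares kept their direction in the alternatives run, but all of these used library totals without TMM scaling. They could not test the scaling, and with TMM the median cytosolic difference in replicate 2 was 0.03. The lowest total was 16.0 M counts, in a GPR35-negative library, and the median SE was 0.21 for cytosolic members and 0.28 for all tested genes.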
